A study of Homo sapiens with 3 samples.

Results

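The RNA levels of 41 genes of the coagulation and complement systems were examined in 3 libraries labelled HepG2, a line established from a human liver cancer. The genes were taken from the deposited tables by gene symbol, and they make up 41 of 39320 gene rows on the assembled chromosomes of GRCh38. They comprise 19 coagulation and 22 complement genes, of which 31 are plasma factors made mainly by the liver and 10 are expressed in many tissues. The 3 libraries are replicates 1, 2 and 3 of wild-type cells, made from polyA RNA, and no treatment, time or second condition is stated for them. Nothing in the labels says that they came from separate cultures, so the spread between them may be technical.

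Coagulation is a cascade of plasma proteases that begins when tissue factor meets factor VII or when the contact factors are activated, and that ends when thrombin turns fibrinogen into fibrin. Complement is a second cascade, entered by the classical, lectin or alternative pathway, in which cleavage of C3 leads to the terminal components that form a pore in the target membrane. Hepatocytes secrete most of these plasma proteins, whereas membrane proteins of host cells, such as CD46, CD55 and CD59, hold complement back at the cell surface.

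Levels are given in TPM, an estimate of transcript abundance that is scaled for gene length and sums to the same total in each library, as the mean ± SD of 3 libraries. A gene counts as detected here with at least 1 TPM in all 3 libraries, and its position in GRCh38 is that of the deposited row. The tables also give the coverage, the mean depth over a gene, but no counts, so the depth of the libraries is unknown. The ratio of coverage to FPKM at its highest, which follows depth, was 13.3, 12.8 and 11.5 in replicates 1, 2 and 3. The label was checked against proteins secreted by hepatocytes. Of 14 such markers, 2 (RBP4 and VTN) were detected, 8 were listed at 0 in every library (ALB, SERPINA1, APOA1, APOA2, APOB, APOC3, APOH and AHSG), and their summed level was 33.6 to 35.4 TPM. Apart from RBP4 and VTN, the defining markers of the labelled cell type were thus below 1 TPM, and the libraries are called by their label only. Of 5 epithelial markers, KRT8 and KRT18, keratins of simple epithelia, were detected at 2588 to 2642 and 1928 to 2129 TPM, whereas KRT19 had 0.0628 to 0.165 TPM, EPCAM had 0.0901 TPM in replicate 3 and 0 in the others, and CDH1 averaged 1.02 ± 0.0382 TPM and was below 1 TPM in replicate 2.

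Of the 41 genes, 14 (34.1%) were detected, against 59.5% of 18743 protein-coding gene rows and 33.8% of all rows. The liver-made plasma factors were detected in 6 of 31 cases (19.4%), and the widely expressed genes in 8 of 10 (80.0%). A further 13 genes were above 0 in at least 1 library but below 1 TPM in all, and MASP2 passed 1 TPM in replicate 2 only. Another 13 genes were listed at 0 in all 3 libraries, as were 20.0% of protein-coding rows. The summed level of all 41 genes was 861, 809 and 787 TPM in replicates 1, 2 and 3, and CD46, CD55 and CD59 made up 87.4%, 86.8% and 86.6% of it. In bulk RNA, fewer cells of a type and less RNA per cell cannot be told apart. A gene listed at 0 can also be a failed estimate, and for these 13 genes 3 reads over the main transcript would correspond to 0.0171 to 0.0414 TPM, a limit that covers counting error only.

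The membrane regulators had the highest levels, and the fibrinogen genes were listed at 0. Their upstream sequences are shown to set these contrasting groups beside each other, and the fibrinogen genes were chosen for this after their values were seen. Each sequence is the 200 bases before the RefSeq transcription start in GRCh38.p14, 5′ to 3′ on the strand of the gene, with CG dinucleotides in capitals. They lie at chr1:207321478-207321677 (plus strand) for CD55, chr1:207751838-207752037 (plus strand) for CD46, chr11:33736480-33736679 (minus strand) for CD59, chr4:154590743-154590942 (minus strand) for FGA, chr4:154562780-154562979 (plus strand) for FGB and chr4:154612657-154612856 (minus strand) for FGG. The RefSeq start lies 206 bases inside the deposited row for CD55 and 152 bases inside it for FGG.
CD55: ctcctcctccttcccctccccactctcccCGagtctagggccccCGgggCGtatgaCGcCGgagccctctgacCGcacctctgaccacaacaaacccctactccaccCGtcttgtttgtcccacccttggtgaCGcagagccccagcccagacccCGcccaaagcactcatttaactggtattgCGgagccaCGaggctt
CD46: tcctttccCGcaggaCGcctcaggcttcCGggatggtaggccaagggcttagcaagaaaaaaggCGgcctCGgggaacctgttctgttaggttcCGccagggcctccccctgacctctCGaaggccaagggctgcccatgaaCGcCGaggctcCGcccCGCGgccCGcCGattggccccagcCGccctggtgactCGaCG
CD59: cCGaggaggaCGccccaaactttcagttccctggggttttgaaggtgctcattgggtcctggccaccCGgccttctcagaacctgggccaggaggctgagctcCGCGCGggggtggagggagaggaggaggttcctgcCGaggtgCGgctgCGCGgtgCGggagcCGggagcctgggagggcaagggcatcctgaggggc
FGA: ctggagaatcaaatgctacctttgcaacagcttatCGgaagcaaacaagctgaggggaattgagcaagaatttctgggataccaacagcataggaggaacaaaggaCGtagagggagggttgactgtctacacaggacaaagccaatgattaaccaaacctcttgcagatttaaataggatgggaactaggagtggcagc
FGB: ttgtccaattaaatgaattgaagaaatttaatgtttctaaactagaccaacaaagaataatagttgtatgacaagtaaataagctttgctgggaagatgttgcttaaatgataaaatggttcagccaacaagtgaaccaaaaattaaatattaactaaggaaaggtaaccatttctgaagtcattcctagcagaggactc
FGG: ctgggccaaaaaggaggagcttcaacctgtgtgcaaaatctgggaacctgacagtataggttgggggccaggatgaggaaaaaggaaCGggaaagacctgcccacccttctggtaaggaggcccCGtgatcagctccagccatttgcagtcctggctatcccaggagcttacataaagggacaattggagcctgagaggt
CG occurred 11 times before CD55, 17 times before CD46 and 12 times before CD59, and 2, 0 and 2 times before FGA, FGB and FGG. The median was 18 over all promoters of detected genes, above each of the membrane regulators, and 2 over those of genes listed at 0. These trios are extremes in level, and the contrast does not hold for every coagulation and complement gene. With a RefSeq entry, 11 detected genes ranged from 1 to 29 CG and the other 25 from 0 to 31.

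The 3 membrane regulators of complement were all far above 1 TPM. CD55, which speeds the decay of the convertases that cleave C3, lies on the plus strand of chromosome 1 from 207321472 to 207360966. It had 494, 486 and 466 TPM in replicates 1, 2 and 3 (482 ± 14.1, n = 3), and 98.3% of rows averaging 1 TPM or more were lower. CD46, a cofactor for the cleavage of C3b and C4b, lies on the plus strand of chromosome 1 from 207752038 to 207795516. CD46 had 196, 156 and 156 TPM (169 ± 22.8). CD59, which keeps C9 from completing the membrane pore, lies on chromosome 11 (minus strand) from 33703010 to 33736479. Its levels were 63.3, 59.9 and 59.5 TPM (60.9 ± 2.12). The 3 genes did not overlap in any pair of libraries, and replicate 1 was the highest for each of them.

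The order of CD46 and CD55 depended on the deposited quantity. In TPM, CD46 was 0.396, 0.322 and 0.334 times the level of CD55 in replicates 1, 2 and 3. In coverage, CD46 had 831, 700.4 and 611 and CD55 had 548, 531 and 456, so that CD46 was higher by 1.51, 1.32 and 1.34 times. The log2 ratio of CD46 to CD55 was -1.51 ± 0.16 in TPM and 0.47 ± 0.11 in coverage, each with the same sign in 3 of 3 libraries. Relative to the highest ratio in the library, the ratio of coverage to FPKM was 0.178 for CD55, 0.707 for CD46 and 0.593 for CD59. It was 1.00 for C3 and CFB, which makes CD55 the detected gene with the lowest value among the 41. Both quantities placed CD59 below CD46 and CD55, with CD46 2.77 ± 0.272 times and CD55 7.92 ± 0.178 times the TPM of CD59. In coverage, CD46 was 3.53, 3.22 and 3.15 times and CD55 2.33, 2.44 and 2.35 times as high as CD59. An exact permutation test that flips the sign of the ratio in each library (two-sided) cannot give a p below 0.25 with 3 libraries, and p was 0.25 for each of the 6 gene pairs compared, also after Benjamini-Hochberg adjustment.

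**Figure D1:**
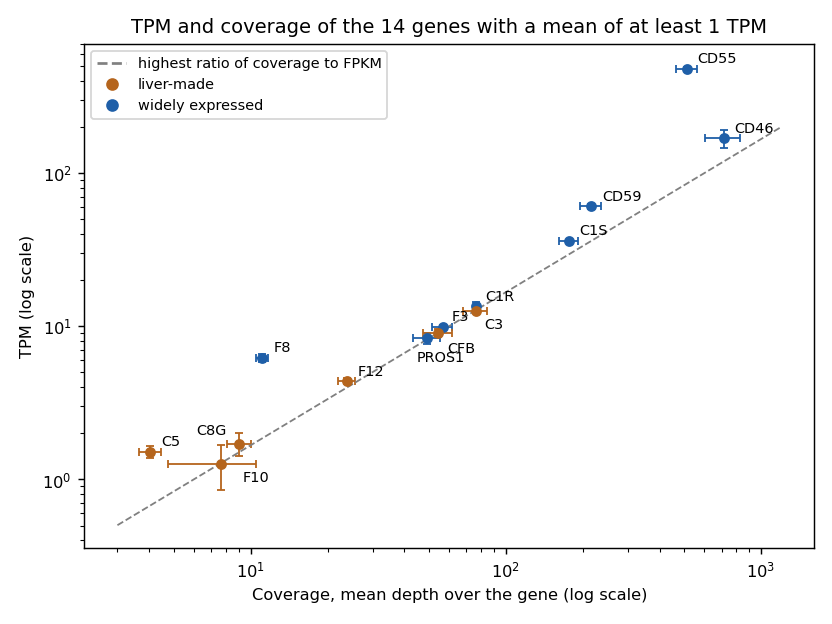
Mean TPM against mean coverage, both on log scales, for the 14 genes averaging 1 TPM or more, with error bars of 1 SD over 3 libraries and colours for liver-made and widely expressed genes. The dashed line marks the highest ratio of coverage to FPKM, and CD55, F8 and C5 lie farthest above it, with relative ratios of 0.178, 0.298 and 0.445.

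In the classical pathway, the genes of the proteases C1r and C1s were detected, whereas those of C4 and C2, the substrates of C1s, were not. C1S, on the plus strand of chromosome 12 from 7060661 to 7071032, had 36.5, 36.6 and 35.4 TPM (36.2 ± 0.665). C1R, on the minus strand from 7080209 to 7092445, had 13.2, 13.1 and 14.5 TPM (13.6 ± 0.787). The neighbours are 9176 bp apart, and C1R had 0.376 ± 0.0290 times the TPM of C1S, lower in 3 of 3 libraries (log2 ratio -1.35 ± 0.10, exact p = 0.25). C2 was listed at 0 in replicate 1, with 0.331 and 0.154 TPM in replicates 2 and 3, and its row contains ZBTB12 on the opposite strand, which had 4.90 TPM. C4A had 0.281, 0.143 and 0.145 TPM and C4B had 0.184, 0.0750 and 0.103 TPM. C4A and C4B are nearly identical in sequence, so the split of reads between them is uncertain and their ratios of 1.53, 1.91 and 1.41 describe that split.

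In the alternative pathway, both genes were detected, although both are mainly made by the liver. C3, the central component on which all the pathways converge, is on chromosome 19 (minus strand) from 6677835 to 6720682. It had 12.9, 13.1 and 12.2 TPM (12.7 ± 0.494) and was the only liver-made gene of the 31 with at least 10 TPM in all 3 libraries. CFB encodes factor B, the protease of the alternative convertase, and lies on the plus strand of chromosome 6 from 31945944 to 31952084. It had 9.62, 9.12 and 8.47 TPM (9.07 ± 0.579). CFB begins 269 bp beyond the end of C2, and C4A and C4B follow it on the same chromosome, so that 1 of these 4 neighbours was detected. The 17 rows of C2, CFB, C4A and C4B on alternate haplotypes were all listed at 0.

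In the lectin pathway, MBL2, which encodes mannose-binding lectin, was listed at 0 in all libraries. MASP1, a protease that binds this lectin, was at 0, 0.0122 and 0.0154 TPM. MASP2, the protease that cleaves C4 and C2, had 0.713, 1.05 and 0.994 TPM. The row of MASP2 overlaps TARDBP on the opposite strand over 4006 bp, and TARDBP had 140.0 ± 5.56 TPM. Since the strand setting of the quantification is not given in the sources used here, reads of such overlapping genes cannot be told apart.

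Of the 7 terminal components, C5 and C8G were detected at low levels. C5, whose cleavage starts the assembly of the pore, had 1.69, 1.44 and 1.44 TPM (1.52 ± 0.141) at 120952335 to 121075174 on chromosome 9 (minus strand). Its row overlaps CNTRL, which had 9.47 to 10.9 TPM, over 402 bp, and its relative ratio of coverage to FPKM was 0.445. C8G, the gene of the gamma chain of C8, had 1.37, 1.90 and 1.85 TPM (1.71 ± 0.290) at 136944870 to 136946981 on the same chromosome, while C8A and C8B, the genes of the other chains, were listed at 0. C9, the subunit that polymerises into the pore, had 0.0511, 0.0486 and 0.0291 TPM, and C7 was above 0 in replicate 1 only, at 0.0152 TPM. C6 was listed at 0. Of the fluid-phase regulators, CFI, the protease that inactivates C3b and C4b, was listed at 0, and C4BPA, the alpha chain of C4b-binding protein, had 0.141, 0.246 and 0.154 TPM.

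C4BPA stood beside a gene of much higher level. C4BPB, which encodes the beta chain of the same protein and is not among the 41 genes, had 288, 293 and 295 TPM (292 ± 3.42). The rows of the 2 genes are 4238 bp apart in the cluster on chromosome 1 that also holds CD55, CR2, CR1 and CD46. In this cluster, C4BPB, CD55 and CD46 were high in every library, and C4BPA, CR2 and CR1 were below 1 TPM in every library, the latter pair with means of 0.00547 and 0.00258 TPM. The relative ratio of coverage to FPKM was 0.419 for C4BPB in replicate 1.

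**Figure D2:**
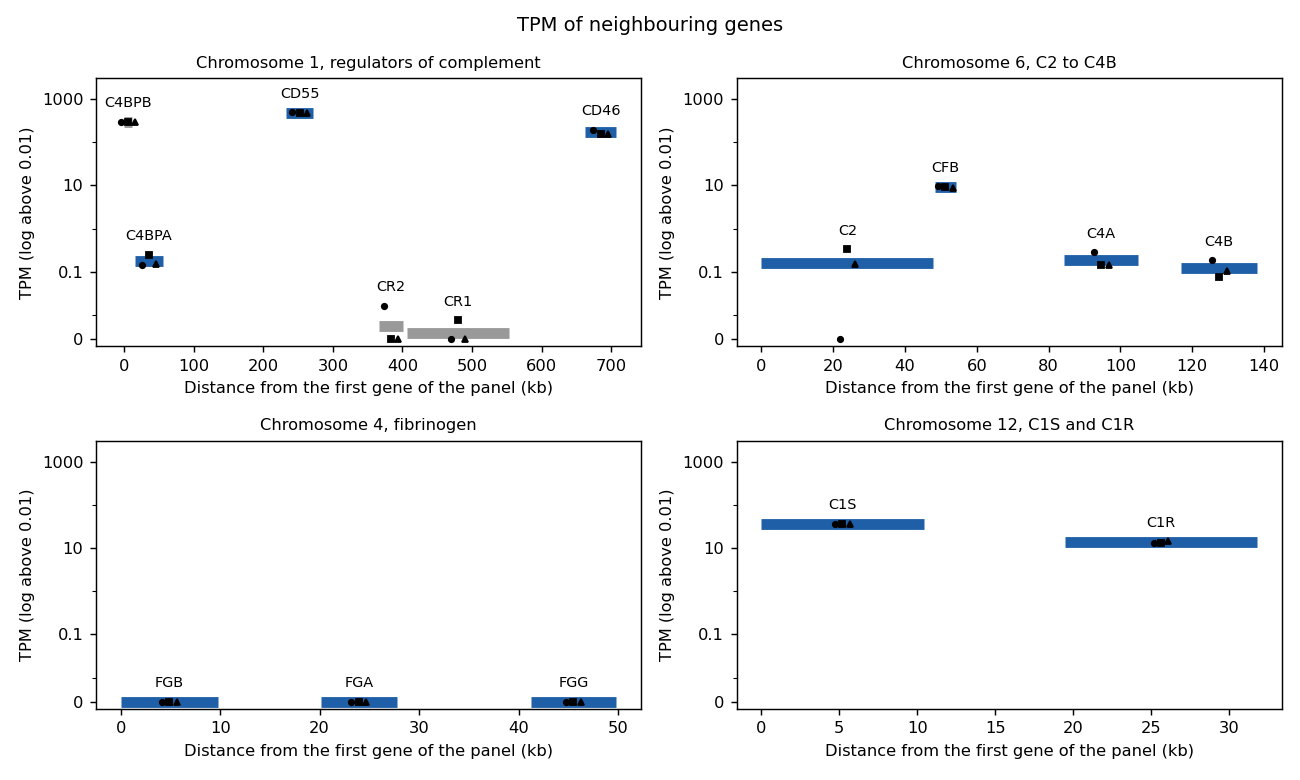
TPM (log scale above 0.01) of neighbouring genes in 4 clusters, on chromosomes 1, 6, 4 and 12, against the distance in kb from the first gene shown. Blue marks the coagulation and complement genes of the 41 and grey other genes, bars span each gene at its mean, and symbols are the 3 libraries, with C4BPB at 292 TPM beside C4BPA at 0.180 TPM.

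Among the genes that start coagulation, F3 was detected and its partner and inhibitor were not. F3, the gene of tissue factor, is on chromosome 1 (minus strand) from 94529173 to 94541857 and ranged from 9.69 TPM in replicate 3 to 10.1 TPM in replicate 1 (9.93 ± 0.213). F7, the gene of the protease that tissue factor activates, was listed at 0 in replicate 1 and had 0.206 and 0.145 TPM in replicates 2 and 3. TFPI, the gene of tissue factor pathway inhibitor, was listed at 0 in all 3 libraries, and no ratio of F3 to TFPI was made.

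Of the contact factors, F12 had 4.30, 4.62 and 4.27 TPM (4.40 ± 0.196) on chromosome 5 (minus strand) from 177402138 to 177409576. KLKB1 (plasma prekallikrein), KNG1 (high-molecular-weight kininogen) and F11, whose products act with factor XII in contact activation, were all listed at 0. F12 was thus the detected gene among the 4, and it had at least 4.27 TPM in each library.

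In the complex that activates factor X, F9 was listed at 0, and F8, the gene of its cofactor, had 6.41, 5.81 and 6.54 TPM (6.25 ± 0.389) on chromosome X (minus strand) from 154835788 to 155022723. The row of F8 contains F8A1 on the opposite strand, which had 27.0 ± 1.42 TPM, and the relative ratio of coverage to FPKM of F8 was 0.298. Recomputed from coverage, the mean of F8 was 1.86 TPM, below the 3.98 TPM of F12, and that of C5 was 0.676 TPM, and C5 was the single detected gene whose mean came below 1 TPM in this way.

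In the common pathway, F10, the gene of factor X, had 1.75, 1.01 and 1.04 TPM (1.27 ± 0.417) at 113122799 to 113149529 on chromosome 13 (plus strand). Replicate 1 was the high one, and the coefficient of variation of 32.9% was the highest of the 14 detected genes. F2, the gene of prothrombin, had 0.0647, 0.128 and 0.0323 TPM, and F5, whose product is the cofactor of factor X, had 0.00453 TPM in replicate 1 and 0 in the others. The 3 fibrinogen genes FGA, FGB and FGG, which lie together on chromosome 4, were listed at 0 in every library. F13B, the carrier subunit of factor XIII, had 0.0640 TPM in replicate 1 and 0 in the others.

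Of the anticoagulant genes, PROS1, the gene of protein S, had 9.09, 7.75 and 8.29 TPM (8.37 ± 0.674) on chromosome 3 (minus strand) from 93873037 to 93974090. PROS1 has a closely related pseudogene, so its level is uncertain to the extent that reads were shared. PROC, the gene of protein C, which needs protein S as cofactor, had 0.0851 TPM in replicate 1 and 0 in replicates 2 and 3. On the log2(TPM + 1) scale, PROS1 exceeded PROC by 3.19 ± 0.05 in 3 of 3 libraries (exact p = 0.25). With PROC at 0 in replicates 2 and 3, the size of this difference depends on the value added before the logarithm. It was 6.11 ± 0.41 with 0.1 added in place of 1, 5.45 in coverage and 2.30 in FPKM. PLG, the gene of plasminogen, the zymogen of the enzyme that dissolves fibrin, had 0.0304 TPM in replicate 2 and 0 in the others.

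**Figure D3:**
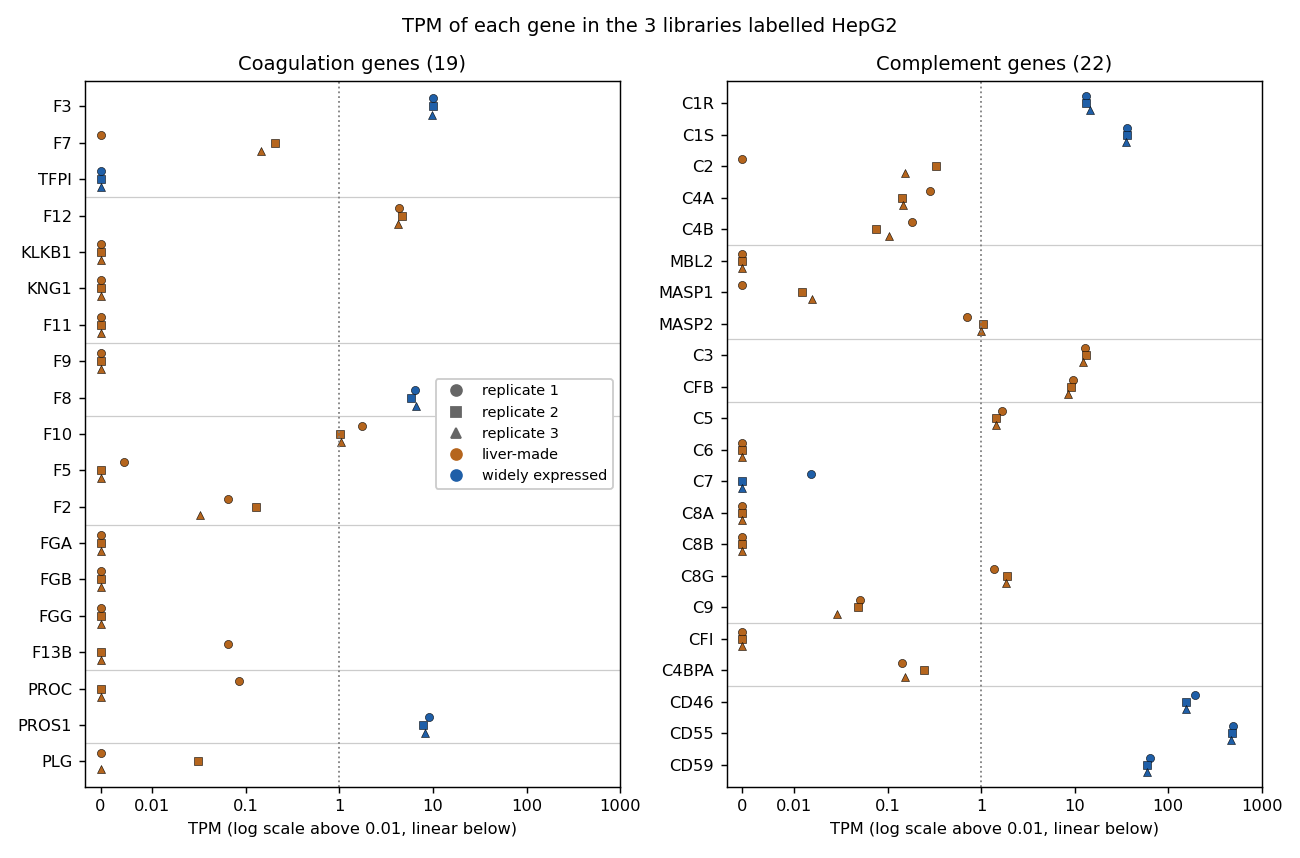
TPM of each of the 19 coagulation and 22 complement genes in the 3 libraries, on an axis that is logarithmic above 0.01 TPM and linear below, with replicates as symbols and liver-made or widely expressed genes as colours. The dotted line marks 1 TPM, which the 14 detected genes passed in every library and MASP2 in replicate 2 only. CD55, CD46 and CD59 lie farthest to the right.

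The widely expressed genes had a higher median than the liver-made genes in each library, although single genes crossed over. The grouping was chosen with earlier results of these data known. The median of log2(TPM + 1) was 3.65, 3.64 and 3.69 over the 10 widely expressed genes in replicates 1, 2 and 3, and 0.00, 0.02 and 0.00 over the 31 liver-made genes. The difference was 3.65 ± 0.03, where the SD is between libraries and does not measure the spread among genes. The median over all rows was 0.07, 0.08 and 0.05. F12, C3, CFB, C5, C8G and F10 were the liver-made genes above 1 TPM, and C7 and TFPI were the widely expressed genes below it. With a limit of 10 TPM, 6 of 41 genes passed, C3 and 5 widely expressed ones, against 40.4% of protein-coding rows. With a limit of 1 FPKM, 11 of the 41 genes passed, 3 of the 31 liver-made and 8 of the 10 widely expressed. The TPM per FPKM was 2.12, 2.09 and 2.09 in replicates 1, 2 and 3, so this limit is stricter than 1 TPM. The share over all rows was not calculated for it.

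Ranked by mean, the detected genes ran CD55, CD46, CD59, C1S, C1R, C3, F3, CFB, PROS1, F8, F12, C8G, C5 and F10. Most neighbours in this order did not overlap between libraries, but CFB overlapped PROS1, C8G overlapped C5 and C5 overlapped F10. By coverage, CD46 came before CD55, F12 before F8, and F10 and MASP2 before C5. Over the 14 genes the coefficient of variation had a median of 6.00%, from 1.84% for C1S to 32.9% for F10, beside 6.12% over 13753 rows averaging 1 TPM or more. None of the 14 had a range of log2(TPM + 1) above 1 between libraries, as 1.26% of those rows did, and the highest range was 0.45.

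Traces below 1 TPM were uneven between libraries. F5, F13B, PROC and C7 were above 0 in replicate 1 only, PLG in replicate 2 only, and F7, C2 and MASP1 in replicates 2 and 3 only. The share of all rows above 0 in only some libraries was not calculated. For F5, F2, F13B, C4A, C4B, C7, C9 and C4BPA, the ratio of coverage to FPKM averaged at least 0.98 of the highest in the library. C4BPA alone was below this in a single library, with 0.967 in replicate 2. The coverage of these genes could be turned into equivalents of 150-base reads over the main transcript. Their 18 values above 0 corresponded to 1.71 to 63.6 such reads with a median of 11.6, and F5 had the fewest.

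The upstream sequences were compared for the 36 genes with a RefSeq entry. A promoter was called CpG-rich when the 200 bases had a GC content of at least 50% and a ratio of observed to expected CG of at least 0.6. Of the detected genes, 4 of 11 were CpG-rich (F3, C5, CD46 and CD55). The 11 had a median of 8 CG, beside 18 over all promoters of detected genes. Of the others, 1 of 25 was CpG-rich (C2, with 31 CG). None of the 13 genes listed at 0 was CpG-rich, and each held 0 to 2 CG, beside 17.3% CpG-rich and a median of 2 CG over all promoters of genes listed at 0. For KLKB1, C8B and MASP1, the RefSeq start lies 11793, 8368 and 1792 bp from the 5′ end of the deposited row. Over all promoters, 48.4% were CpG-rich, 79.2% of those of detected genes and 24.6% of the rest. CD59, with 12 CG, was not CpG-rich by this definition. TATAAA, searched on both strands, was found before F3, F13B and CFB (8.33% of 36, against 8.69% of all promoters).

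**Figure D4:**
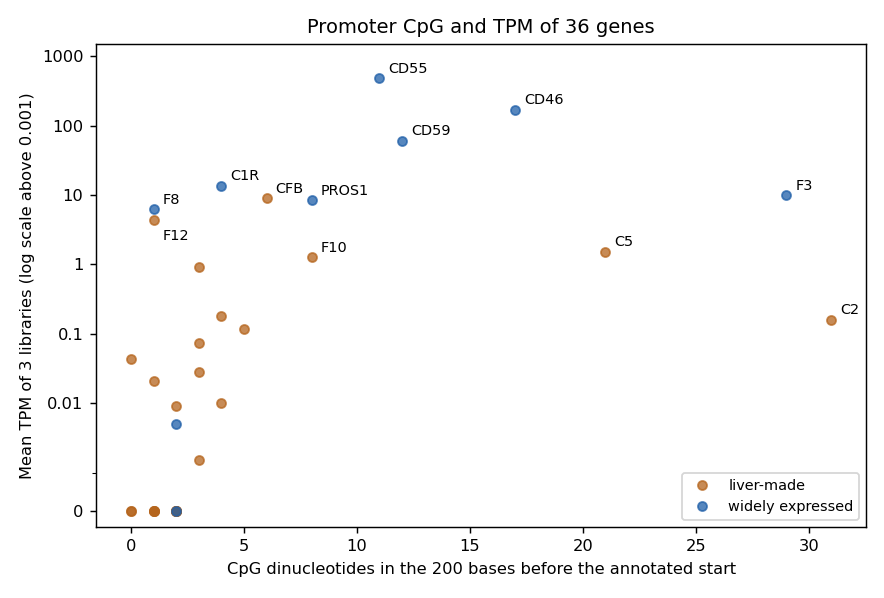
Mean TPM on a log scale, linear near 0, against the number of CG dinucleotides in the 200 bases before the RefSeq start, 1 point for each of 36 genes. The 13 genes listed at 0 lie at 0 to 2 CG, while the detected genes range from 1 to 29 CG.

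Other genes of the same systems were examined from lists of 33 coagulation and 34 complement genes. Of the coagulation genes, 18 (54.5%) were detected, near the 59.5% of protein-coding rows, and 13 of the 33 had at least 10 TPM in all libraries, as did 40.4% of protein-coding rows. GGCX, the vitamin K-dependent carboxylase, had 20.8 TPM, and VKORC1 and VKORC1L1, which recycle vitamin K, had 181 and 20.4 TPM. LMAN1 and MCFD2, the cargo receptor for factors V and VIII, had 93.7 and 64.3 TPM. FURIN, a protease that processes precursors of clotting factors, had 63.5 TPM. The cell surface genes PROCR, the receptor of protein C, and PLAUR, the urokinase receptor, had 35.6 and 39.2 TPM, and TFPI2, the gene of a protease inhibitor, had 49.5 TPM. ANXA2 and ANXA5, which encode phospholipid-binding annexins, had 1371 and 379.9 TPM, and S100A10, whose product binds annexin A2, had 623 TPM. In replicate 1, the relative ratio of coverage to FPKM of these genes ran from 0.0747 for VKORC1L1 to 1.000 for LMAN1 and S100A10. It was 0.231 for PLAUR, 0.306 for ANXA2 and 0.347 for GGCX, so these levels also depend on the deposited quantity. Of the complement genes, 7 of 34 (20.6%) were detected, and CLU (908 TPM), C1QBP (451 TPM), C4BPB, CFD (38.9 TPM), the gene of factor D, and VTN (23.3 TPM) had at least 10 TPM. C1QA, C1QB and C1QC, which encode the recognition part of C1, were listed at 0, while C1R and C1S, which encode its proteases, were detected.

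Most markers of other cell types that make clotting or complement factors were below 1 TPM. Of 7 endothelial markers, VWF alone was detected, KDR was listed at 0 and the sum was 1.52 to 1.96 TPM. Of 7 monocyte and macrophage markers, CD68 alone was detected, 4 were listed at 0 and the sum was 9.34 to 11 TPM. Of 5 megakaryocyte markers, GP1BA was detected, with 3 listed at 0 and a sum of 2.87 to 3.25 TPM. Of 6 fibroblast markers, COL1A1 (6.93 TPM) and PDGFRB (2.25 TPM) were detected, and the sum was 8.80 to 9.53 TPM. The part of such cell types in the levels of the 41 genes was not tested.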

How the data were processed

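RNA was extracted with TRIzol, and polyA RNA was sequenced in 3 libraries of 1 condition. Per the paper's methods and the submitters' processing notes, 150 bp paired-end reads were filtered with FastQC 0.11.8 and Trim Galore 0.6.2 and mapped to GRCh38 with STAR 2.6.1a, and StringTie is named without a version. The annotation and the strand setting are not given in the sources used here. The authors deposited 1 table per library with the TPM of each gene, the FPKM, scaled for length and library size, and the coverage, a signal that is not scaled for library size.

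The tables were joined on gene name, strand, start and end (43389 rows), and the 39320 rows on whole chromosomes were used, without alternate or unplaced sequences. The 41 genes, the other gene lists and the roles were chosen with earlier results of these data known. Each of the 41 was accounted for, those above 0 were given by library, and of the other listed genes those with at least 10 TPM in all libraries were named, except 1 that is not reported here. Sequences had been planned for the highest genes and for C4A and C4B. C4A, C4B, C3, C1S and C8G had no promoter entry. Ratios within a library used log2(TPM + 1) and an exact permutation test (two-sided, by flipping signs over the 3 libraries), adjusted by Benjamini-Hochberg over 6 pairs. No comparison between conditions was possible. Main transcripts were the MANE Select transcripts of GENCODE 44, and promoters came from RefSeq (GRCh38.p14). The range calculation was tested on simulated data modelled on rows averaging at least 10 TPM, which do not cover genes below that level.

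Alternatives were leaving out each library, other limits and pseudocounts, FPKM or coverage for TPM, other scalings, other assignments of genes to the liver-made group, and, added after seeing the data, leaving out genes that overlap another expressed row and recomputing TPM from coverage. Calculations used pandas 2.3.3, scipy 1.17.1, numpy 2.4.6 and matplotlib 3.10.9 in Python 3.11.15.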

Additional observations from a re-analysis of the deposited data

How the results depend on the processing

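With a limit of 10 TPM in place of 1 TPM, 6 of the 41 genes passed in all libraries, against 40.4% of protein-coding rows. Of these 6, 1 was liver-made and 5 were widely expressed. With 1 FPKM, 11 of the 41 passed, 3 liver-made and 8 widely expressed, and the share over all rows was not calculated. The difference in median between widely expressed and liver-made genes, 3.65 in the report, was 6.82 with a pseudocount of 0.1, 2.71 in FPKM, 6.05 in coverage, 3.53 over genes averaging 0.1 TPM or more, and 3.04 or 4.67 with 8 or 4 genes reassigned between the groups. It kept its sign in each of these. The log2 ratio of CD46 to CD55 turned from -1.51 to 0.47 in coverage, and the cause was not tested. Leaving out each library in turn gave 14, 6 and 8 detected genes among all, liver-made and widely expressed genes each time, and a median difference of 3.64 to 3.67. An alternative added after seeing the data left out the 5 genes that overlap another expressed row (C2, C5, CD59, F8 and MASP2). It left 11 detected genes, since C5, CD59 and F8 had been among the 14, and the difference was 3.66. Rescaling TPM without the genes of the mitochondrial genome raised the 14 means by 1.25 to 1.26 times. TPM recomputed from coverage, also added after seeing the data, gave 0.178 to 1.00 times the 14 means and left 6 within 1 SD, with CD55 at 85.6, CD46 at 119 and CD59 at 36.1 TPM. No paired analysis was possible because the libraries form 1 group. Taking the row of highest mean per gene was not run, since each of the 41 genes has 1 row. The tables hold no counts, so no counting error could be given for the levels.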

Other observations

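Zeros are written in the deposited tables in a short form, 0.0, and a long form, 0.000000. The short form was used for 12337, 11912 and 12187 rows in replicates 1, 2 and 3, all in 1 block at the end of each table, and the long form for 10085, 10404 and 10624 rows. Of the 13 coagulation and complement genes listed at 0, KLKB1, F9, FGB, FGG, C8A and C8B had the short form in every library, KNG1 had the long form in every library, and TFPI, F11, FGA, MBL2, C6 and CFI had both forms. The sources used here do not say what separates the forms.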
